A study of Mus musculus with 6 samples.

Results

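Endothelial cells line every vessel of the heart and carry a shared set of junction proteins, receptors and transcription factors. The genes described here are that set together with the ligands and receptors that drive new vessels: VEGF, angiopoietin, apelin and Notch signalling. They were taken by name from a list of 37 symbols, of which the deposited table holds 36 among 12969 genes. Rgcc was not analysed here. All 36 had a mean of at least 1 RPKM (reads per kb of gene length and M reads) over the 6 libraries and were tested.

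RNA-seq was made from infarct tissue of male mice about 12 weeks old, on day 4 after permanent suture ligation of the left anterior coronary artery. The Irf3KO group held 3 IRF3-/- mice; no source used here names their strain or the part of the gene that was deleted. The WT group held 3 C57BL/6 mice. Every animal in both groups carried an infarct. Irf3 encodes a transcription factor that nucleic acid sensors activate and that switches on type I interferon. The comparison asks how its loss alters the transcripts of the healing infarct. Infarct tissue mixes many cell types, so fewer endothelial cells and less endothelial RNA per cell cannot be told apart here.

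In adult myocardium the endothelium is mostly capillary and rests in a quiescent state held by angiopoietin 1 acting on its receptor Tek. After infarction, hypoxic tissue releases VEGF, which acts through Kdr and turns selected endothelial cells into migrating tip cells. Notch signalling from Dll4 on the tip to Notch1 on its neighbours limits how many cells sprout.

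Depth came to 14.794, 18.088 and 61.926 M reads in genes in Irf3KO replicates 1 to 3, and to 18.878, 20.787 and 15.719 M in WT replicates 1 to 3. Irf3 itself stood at 7.40, 8.74 and 7.68 RPKM in the Irf3KO libraries, against 13.76, 13.87 and 11.56 RPKM in the WT libraries. Every Irf3KO library lay below every WT library, with reads in all 3, and the log2 fold change missed the threshold over all genes (-0.65, limma adjusted p = 0.344). Irf3KO replicate 2 stood apart, with a mean correlation of 0.907 with the other libraries, against 0.941 to 0.966 for the rest. It also had the largest share of reads in Lars2, a locus that collects ribosomal RNA reads, at 2.47%, against 0.131% to 0.696% in the other 5.

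The endothelial markers of the set were well detected. No member was listed at 0 in any library, and the fewest reads behind any value were 25, for Esm1 in Irf3KO replicate 2. The defining junction gene Pecam1 averaged 56.0 ± 26.1 RPKM in Irf3KO and 68.3 ± 12.9 RPKM in WT (SD, n = 3 per group), and Cdh5 was higher per gene length than Pecam1 in each library. Fabp4, a fatty acid carrier of capillary endothelium that adipocytes and macrophages also express, had the highest level per gene length, at 588 ± 140 RPKM in Irf3KO and 476 ± 44.0 RPKM in WT. Esm1 was the lowest in Irf3KO, at 1.18 ± 0.448 RPKM, and Tal1 the lowest in WT, at 2.29 ± 0.574 RPKM. The plot of all levels by library shows the span between them.

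**Figure D1:**
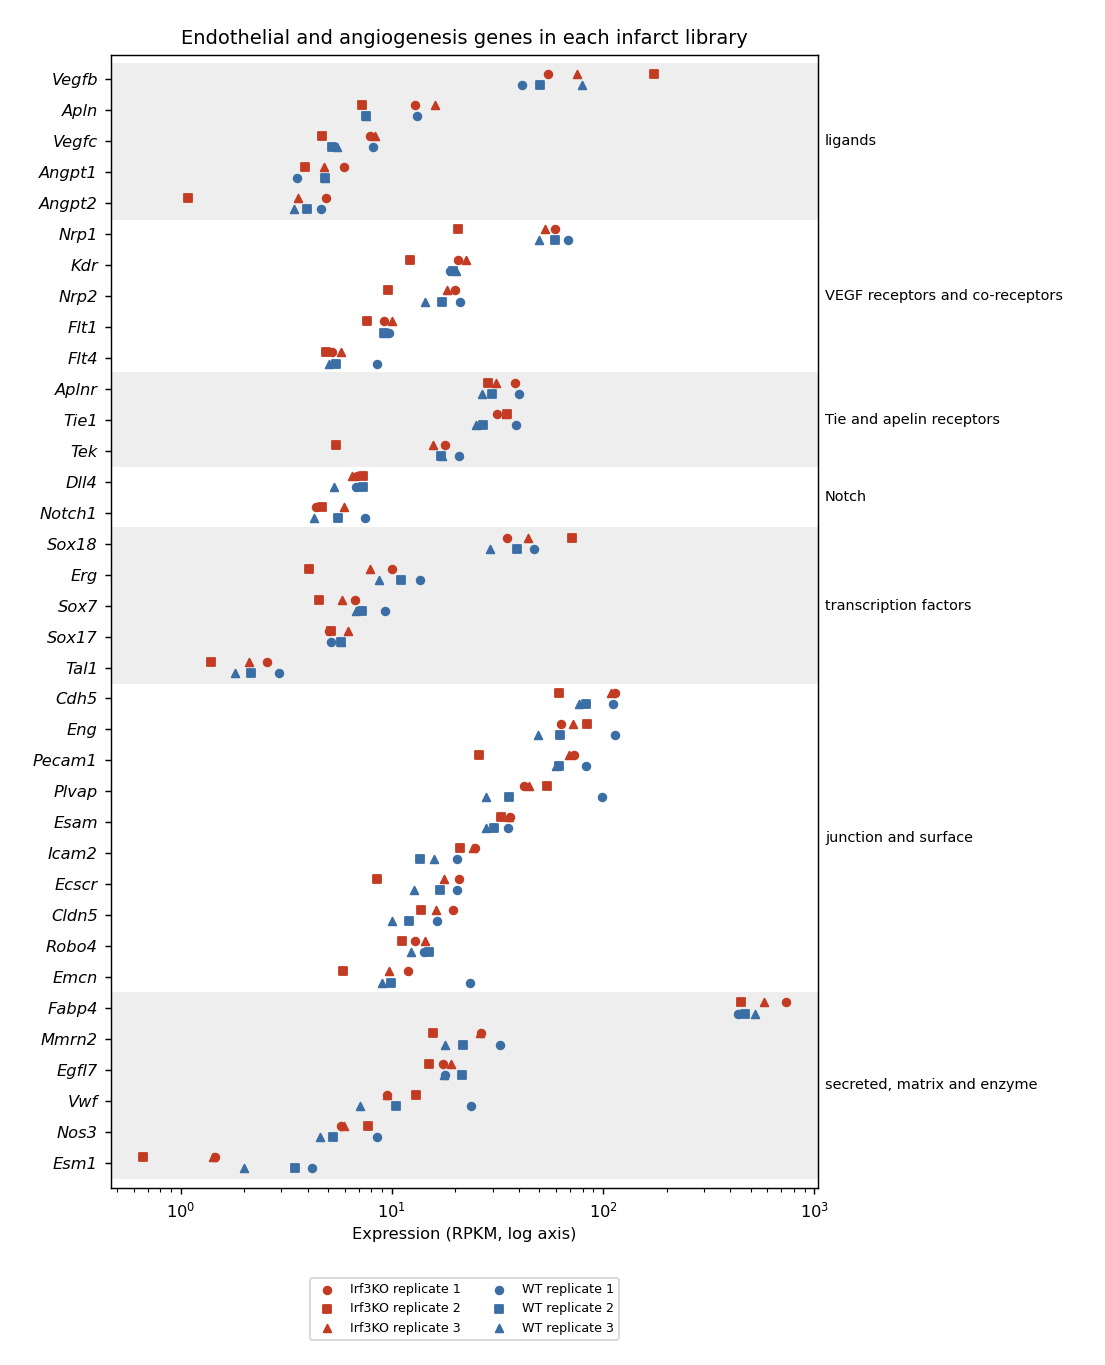
Expression in RPKM on a log axis for the 36 genes, grouped by role, with each point 1 library; red points above are Irf3KO and blue points below are WT, and marker shapes give replicates 1 to 3. Only Esm1 and Sox7 have all red points left of all blue ones, and only Icam2 has all red points to the right; the Irf3KO replicate 2 square is often the leftmost.

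No member passed the test across all genes. Of the 36, 0 had a limma adjusted p under 0.05, where 0.503% of all 12913 tested genes did. At an unadjusted p under 0.05 there were 2, where 8.4% of all tested genes passed. Of these Esm1 was lower, as were 5.96% of all genes, and Icam2 higher, as were 2.45%. The median log2 fold change of the members was -0.07, beside -0.09 for all tested genes, and 20 members lay below 0, as did 59.3% of all genes, and 16 above. The number below 0 depended on the libraries used: it was 25 without WT replicate 3, 14 without Irf3KO replicate 2, 11 with array weights and 6 without both Irf3KO replicate 2 and WT replicate 1. Scaling each library by its median of ratios moved the median of all genes by 0.10, to 0.02, and that of the members to 0.05, so both medians change sign with the scaling. Without Irf3KO replicate 2 the members' median was 0.05, beside 0.01 for all genes, and 0 members were called (0.75% of all genes). Without both that library and WT replicate 1, an alternative chosen after the values were seen, 2 members were called, Apln and Icam2, where 2.98% of all genes were, and 9 had an unadjusted p under 0.05, where 17.0% of all genes did. Array weights called 7 members, where 22.9% of all genes were called, and put 11 at an unadjusted p under 0.05, where 39.5% of all genes were. With 3 libraries per group the 95% intervals are wide: from -0.63 to 0.70 on the log2 scale for Cdh5 and from -0.68 to 0.44 for Kdr. Differences anywhere within those bounds are compatible with these values. The bounds are no detection limit, as Esm1 at -0.94 was also not called (limma adjusted p = 0.344).

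**Figure D2:**
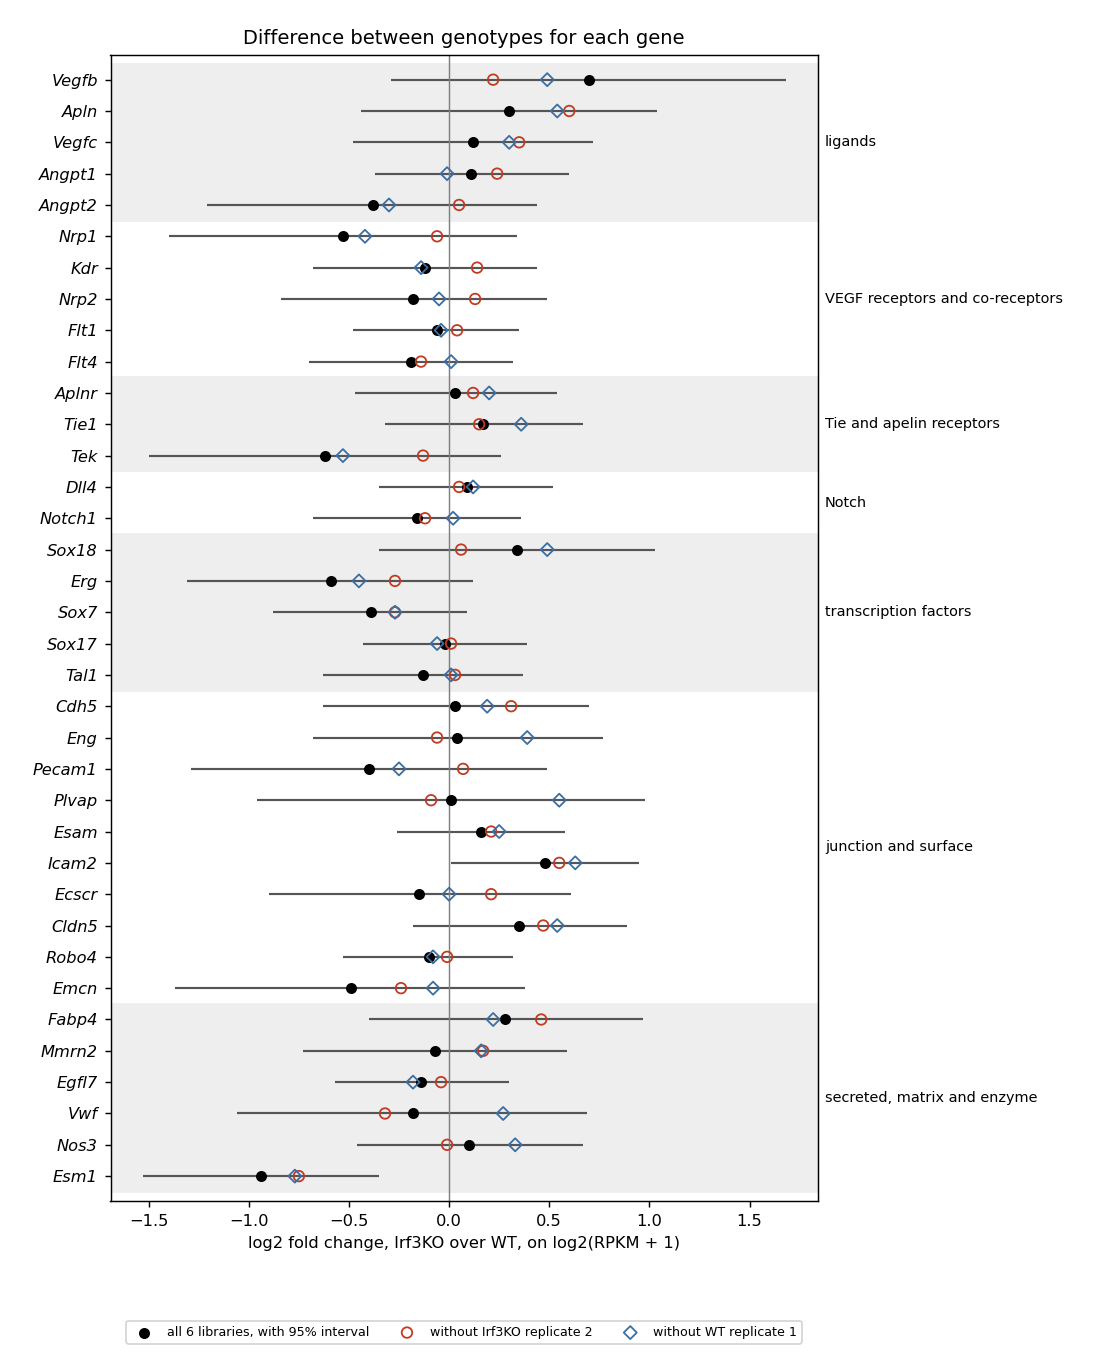
Log2 fold change of Irf3KO over WT on log2(RPKM + 1) for each gene (black points, with limma's 95% interval as bars), and the same value without Irf3KO replicate 2 (red circles) or without WT replicate 1 (blue diamonds). The interval of Esm1, from -1.53 to -0.35, and that of Icam2, from 0.01 to 0.95, do not cross 0, and the other 34 do; for many genes the red circles or blue diamonds lie on the other side of 0 from the black point.

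Esm1 differed most between the genotypes relative to its spread. It encodes endocan, a proteoglycan secreted by endothelium that VEGF induces and that marks tip cells. Esm1 stood at 1.45, 0.66 and 1.42 RPKM in the Irf3KO libraries, against 4.17, 3.46 and 2.0 RPKM in the WT libraries. Every Irf3KO library lay below every WT library, on about 45, 25 and 184 reads in Irf3KO and 165, 151 and 66 reads in WT. Its log2 fold change was -0.94 ± 0.26 (SE, n = 3 per group), with an unadjusted limma p of 0.00634 and an adjusted p of 0.344. Values after ± on log2 fold changes are standard errors throughout. Leaving out each library in turn gave -1.16 to -0.75, and the unadjusted p stayed under 0.05 each time, from 0.00254 to 0.0294. With a correction for transcript GC content it was -0.66 ± 0.21 (adjusted p = 0.322). Among all tested genes 11.8% had every Irf3KO library below every WT library, and 2 of the 36 members did, Esm1 and Sox7.

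Promoter sequences from RefSeq (build GRCm38.p6) were available for 20 of the 36 members. The 250 bases before the start are shown for Esm1 and for 3 other members among the 10 with the smallest p: Emcn, and Tek and Vegfb, which lay at opposite ends in Irf3KO replicate 2. Capitals mark full-length matches on either strand. The motifs were AGGAAG (the ETS family, to which Erg belongs), AACAGGAA (ETS beside a forkhead site) and AACAAT (SOX factors). The others were the interferon response element that IRF factors bind (GAAA, any 2 bases, GAAA) and TGCGTG (the hypoxia response element with flanking bases). AGGAAG and AACAGGAA can overlap, and in Emcn they do.
Esm1, chr13:113209409-113209658, plus strand: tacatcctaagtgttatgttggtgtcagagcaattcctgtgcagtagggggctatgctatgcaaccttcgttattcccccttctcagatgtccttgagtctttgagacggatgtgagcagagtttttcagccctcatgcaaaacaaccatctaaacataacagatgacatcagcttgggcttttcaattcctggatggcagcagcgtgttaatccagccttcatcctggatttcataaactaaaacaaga
Emcn, chr3:137340828-137341077, plus strand: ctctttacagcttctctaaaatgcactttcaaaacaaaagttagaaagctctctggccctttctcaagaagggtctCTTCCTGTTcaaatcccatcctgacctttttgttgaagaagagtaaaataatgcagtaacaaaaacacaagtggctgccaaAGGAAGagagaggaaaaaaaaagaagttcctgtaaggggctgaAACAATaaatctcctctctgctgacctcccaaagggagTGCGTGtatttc
Tek, chr4:94739039-94739288, plus strand: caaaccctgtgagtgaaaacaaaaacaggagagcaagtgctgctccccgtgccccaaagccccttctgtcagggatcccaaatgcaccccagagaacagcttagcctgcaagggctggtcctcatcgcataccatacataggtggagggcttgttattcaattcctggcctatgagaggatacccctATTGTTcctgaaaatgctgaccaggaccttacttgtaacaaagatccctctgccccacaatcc
Vegfb, chr19:6987652-6987901, minus strand: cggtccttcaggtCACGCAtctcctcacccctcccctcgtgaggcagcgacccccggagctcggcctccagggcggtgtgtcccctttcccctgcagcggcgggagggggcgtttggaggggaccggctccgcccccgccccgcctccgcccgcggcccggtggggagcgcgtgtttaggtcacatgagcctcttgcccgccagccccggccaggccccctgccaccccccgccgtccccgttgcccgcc
The Esm1 window holds none of the 5 motifs at full length and the Emcn window holds 5 matches. Shorter cores of these motifs were not searched, so a window without a match can still hold one. GC content was 44.0% for Esm1, 40.8% for Emcn, 51.2% for Tek and 76.4% for Vegfb. AGGAAG was found in 9 of the 20 member windows, against 32.3% of the windows of 27025 genes, and AACAGGAA in 2 of 20, against 2.5%. AACAAT was found in 3 of 20, against 10.9%, and TGCGTG in 4 of 20, against 7.83%. The interferon response element was found in 0 of 20, against 3.46% of genes. A match describes these letters only.

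Among the ligands, 4 of 5 values lay above 0 and none was called. Vegfb, a VEGF family ligand of Flt1 that heart muscle makes in quantity, stood at 54.96, 174.02 and 74.94 RPKM in Irf3KO, against 41.39, 50.53 and 79.24 RPKM in WT. Irf3KO replicate 2 was far above all others and the remaining libraries overlapped. The log2 fold change was 0.70 ± 0.43 (limma adjusted p = 0.556), and 0.22 without that library. The summed level of 20 cardiomyocyte markers had the same order over the 6 libraries, with 19317, 31869 and 22253 RPKM in Irf3KO and 8973, 17308 and 24986 RPKM in WT; its part in the Vegfb values was not tested. Vegfc, the ligand of Flt4, stood at 7.88, 4.67 and 8.34 RPKM in Irf3KO, against 8.16, 5.18 and 5.50 RPKM in WT, and the groups overlapped (0.12 ± 0.26; 0.35 without Irf3KO replicate 2).

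Apln, the apelin peptide that tip cells make, stood at 12.84, 7.20 and 15.94 RPKM in Irf3KO, against 13.12, 7.55 and 7.52 RPKM in WT. Irf3KO replicate 2 was the lowest library and WT replicate 1 matched the high Irf3KO libraries, so the groups overlapped (log2 fold change 0.30 ± 0.32, limma adjusted p = 0.658; 0.60 without Irf3KO replicate 2). With both of those libraries left out, Apln was at 0.84 (adjusted p = 0.018). Angpt1, the activating ligand of Tek, stood at 5.92, 3.88 and 4.79 RPKM in Irf3KO, against 3.56, 4.82 and 4.83 RPKM in WT. Angpt2, which endothelium releases on activation and which can oppose Angpt1, stood at 4.85, 1.08 and 3.59 RPKM in Irf3KO, against 4.64, 3.95 and 3.45 RPKM in WT. Neither separated the groups, and the low Irf3KO value of Angpt2 came from replicate 2, without which its log2 fold change was 0.05 in place of -0.38. Angpt1 was at 0.11 ± 0.21, at 0.24 without that library and at -0.01 without WT replicate 1.

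All 5 VEGF receptors and co-receptors had a log2 fold change below 0, from -0.53 to -0.06, and none was called. Median-of-ratios scaling put 1 of the 5 above 0, and leaving out Irf3KO replicate 2 put 3 above 0. Kdr, the main signalling receptor for VEGF, stood at 20.59, 12.24 and 22.52 RPKM in Irf3KO, against 18.85, 19.43 and 20.22 RPKM in WT. Flt1, a high-affinity receptor that also acts as a decoy, stood at 9.20, 7.62 and 10.01 RPKM in Irf3KO, against 9.68, 9.21 and 9.14 RPKM in WT. For both genes the 3 WT libraries lay close together, Irf3KO replicate 2 lay below them and replicate 3 above them. Their log2 fold changes of -0.12 ± 0.24 for Kdr and -0.06 ± 0.18 for Flt1 were 0.14 and 0.04 without replicate 2. Nrp1, a co-receptor for VEGF and semaphorins, stood at 59.08, 20.61 and 53.12 RPKM in Irf3KO, against 67.95, 59.07 and 49.76 RPKM in WT, with replicate 2 again the low library (-0.53 ± 0.38, limma adjusted p = 0.566; -0.06 without it). Flt4, the VEGF-C receptor of lymphatic and sprouting endothelium, and Nrp2, its co-receptor, were at -0.19 ± 0.22 and -0.18 ± 0.29, and at -0.14 and 0.13 without that library.

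Tek, the angiopoietin receptor, stood at 17.77, 5.41 and 15.61 RPKM in Irf3KO, against 20.83, 17.06 and 17.35 RPKM in WT. Irf3KO replicate 2 was less than any other library by a wide margin, and replicate 1 lay inside the WT range (-0.62 ± 0.38, limma adjusted p = 0.556; -0.13 without replicate 2). Tie1, its orphan partner, stood at 31.36, 35.00 and 34.74 RPKM in Irf3KO, against 38.82, 27.01 and 24.98 RPKM in WT (0.17 ± 0.22). Aplnr, the apelin receptor, stood at 38.45, 28.66 and 31.03 RPKM in Irf3KO, against 40.02, 29.80 and 26.66 RPKM in WT (0.03 ± 0.22; 0.12 without Irf3KO replicate 2). Both receptors overlapped between the genotypes, with WT replicate 1 the highest library for each. The Notch ligand Dll4 stood at 6.83, 7.31 and 6.50 RPKM in Irf3KO, against 6.79, 7.31 and 5.30 RPKM in WT (0.09 ± 0.19), and its receptor Notch1 was at -0.16 ± 0.23.

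Of the transcription factors, 4 of 5 lay below 0 and none was called; without Irf3KO replicate 2 the number below 0 was 2. Erg, an ETS factor that maintains endothelial identity, stood at 10.06, 4.07 and 7.86 RPKM in Irf3KO, against 13.63, 11.08 and 8.66 RPKM in WT. The groups overlapped by 1 library, and the log2 fold change of -0.59 ± 0.31 (limma adjusted p = 0.556) was -0.27 without Irf3KO replicate 2. Sox7, Sox17 and Sox18 form the SOXF group, which acts in arterial and lymphatic specification. Sox7 stood at 6.66, 4.54 and 5.79 RPKM in Irf3KO, against 9.25, 7.23 and 6.73 RPKM in WT; the groups did not overlap, though Irf3KO replicate 1 and WT replicate 3 lay close together, and the log2 fold change was -0.39 ± 0.21 (adjusted p = 0.556). Sox18 stood at 35.01, 71.49 and 44.18 RPKM in Irf3KO, against 46.95, 39.17 and 29.18 RPKM in WT (0.34 ± 0.30; 0.06 without Irf3KO replicate 2). It was highest in the same Irf3KO library in which Erg and Sox7 were lowest. Sox17 and Tal1, a factor of blood and endothelial progenitors, were at -0.02 ± 0.18 and -0.13 ± 0.22, and at 0.01 and 0.03 without that library.

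Junction and surface genes were split, 6 of 10 above 0 and 4 below, and the split turned with the libraries used. It was 3 above and 7 below without WT replicate 2 or without WT replicate 3, and 10 above without both Irf3KO replicate 2 and WT replicate 1. Icam2, a constitutive endothelial ligand of leukocyte integrins, stood at 24.64, 20.91 and 24.29 RPKM in Irf3KO, against 20.28, 13.57 and 15.80 RPKM in WT. Every Irf3KO library lay above every WT library, as for 6.61% of all tested genes and 1 of the 36 members. Its log2 fold change was 0.48 ± 0.20 (SE), with an unadjusted limma p of 0.0449 and an adjusted p of 0.556. As each library was left out in turn it was 0.36 to 0.63, and the unadjusted p was above 0.05 in 4 of the 6 cases: without Irf3KO replicate 1 or 3 and without WT replicate 2 or 3. Cldn5, the main endothelial claudin of tight junctions, stood at 19.46, 13.76 and 16.23 RPKM in Irf3KO, against 16.41, 12.01 and 9.99 RPKM in WT (0.35 ± 0.23). Its Irf3KO libraries were mostly higher, with 2 of 3 below the highest WT library.

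Cdh5, the VE-cadherin of adherens junctions, stood at 114.14, 62.04 and 108.88 RPKM in Irf3KO, against 111.35, 83.50 and 77.23 RPKM in WT (0.03 ± 0.29). Pecam1, the CD31 adhesion molecule, stood at 72.69, 25.98 and 69.36 RPKM in Irf3KO, against 83.15, 61.99 and 59.78 RPKM in WT (-0.40 ± 0.39). Both had their lowest value in Irf3KO replicate 2, and without it they were at 0.31 and 0.07. Esam, Ecscr and Robo4, further adhesion and guidance molecules of endothelium, were at 0.16 ± 0.18, -0.15 ± 0.33 and -0.10 ± 0.19, all with overlapping groups. They were at 0.21, 0.21 and -0.01 without Irf3KO replicate 2.

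Another group of members was high in WT replicate 1. Emcn, a sialomucin of capillaries and veins, stood at 11.92, 5.88 and 9.65 RPKM in Irf3KO, against 23.41, 9.89 and 8.96 RPKM in WT (-0.49 ± 0.38). Vwf, the platelet-binding glycoprotein of larger vessels and endocardium, stood at 9.50, 13.03 and 9.52 RPKM in Irf3KO, against 23.59, 10.41 and 7.09 RPKM in WT (-0.18 ± 0.38). Plvap, the diaphragm protein of fenestrae and caveolae, stood at 42.37, 54.10 and 44.49 RPKM in Irf3KO, against 98.79, 35.79 and 27.97 RPKM in WT (0.01 ± 0.42). In each case a single WT library sat far above the rest, and without it Plvap and Vwf were at 0.55 and 0.27 and Emcn at -0.08. Without Irf3KO replicate 2 in its place Plvap and Vwf were at -0.09 and -0.32 and Emcn at -0.24. Eng, the TGF-beta co-receptor endoglin, had the same shape, at 0.04 ± 0.32 with all libraries, 0.39 without WT replicate 1 and -0.06 without Irf3KO replicate 2. Platelets also carry Vwf, and the summed platelet and red cell markers came to 1152, 692 and 327 RPKM in Irf3KO and 693, 198 and 289 RPKM in WT; their part in the Vwf values was not tested.

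WT replicate 1 was the highest of the 6 libraries for 18 of the 36 members, against 24.2% of all tested genes. Of 12 tested genes of the endocardium and arteries 10 lay below 0, with none called and a median of -0.60, which was -0.29 without WT replicate 1 and -0.39 without Irf3KO replicate 2. At an unadjusted p under 0.05, 4 of the 12 were lower, as were 5.96% of all tested genes. With the GC correction 1 of the 12 passed in either direction, where 11.9% of all genes did. Without both Irf3KO replicate 2 and WT replicate 1 the median was -0.13, with 7 of the 12 below 0. Then 3 passed in either direction, where 17.0% of all genes did. The endocardial genes Npr3, Nrg1 and Cytl1, chosen after their values were seen, were also high in WT replicate 1. Npr3, the natriuretic peptide clearance receptor, stood at 1.82, 1.28 and 1.43 RPKM in Irf3KO, against 13.27, 2.45 and 3.06 RPKM in WT. Nrg1, a neuregulin that endocardium secretes, stood at 1.60, 0.74 and 1.41 RPKM in Irf3KO, against 9.29, 2.63 and 1.96 RPKM in WT. Both had groups that did not overlap, with most of the distance from that WT library: Npr3 was at -1.23 ± 0.48 with all libraries (limma adjusted p = 0.556) and at -0.58 without it. Cytl1 stood at 1.87, 1.59 and 1.14 RPKM in Irf3KO, against 6.80, 1.43 and 2.48 RPKM in WT. That library also had the lowest summed cardiomyocyte markers and the highest summed monocyte and macrophage markers (6324 RPKM, against 2267 to 5878 RPKM in the other 5), whose part in these values was not tested.

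**Figure D3:**
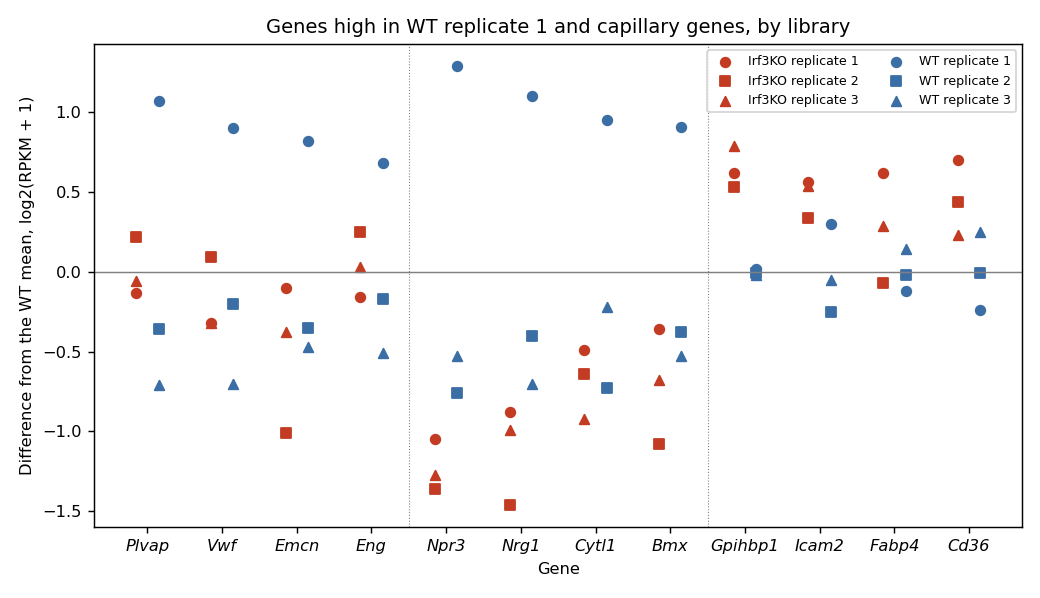
Difference of each library from the WT mean on log2(RPKM + 1). Shown are 4 members high in WT replicate 1 (Plvap, Vwf, Emcn, Eng) and 4 endocardial and arterial genes (Npr3, Nrg1, Cytl1, Bmx). The last 4 columns are the capillary genes Gpihbp1, Fabp4 and Cd36 and the junction and surface member Icam2. All were chosen after the values were seen. Red is Irf3KO, blue is WT, and shapes give replicates 1 to 3. The WT replicate 1 circle is alone at the top of the first 8 columns, and Gpihbp1 and Icam2 have every red point above every blue one.

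The secreted, matrix and metabolic members other than Esm1 did not separate the genotypes. Fabp4 stood at 731.97, 451.30 and 580.57 RPKM in Irf3KO, against 435.49, 469.72 and 522.83 RPKM in WT. Irf3KO replicates 1 and 3 lay above every WT library and replicate 2 among them (0.28 ± 0.30, limma adjusted p = 0.658; 0.46 without replicate 2). None of the 8 listed adipocyte markers was analysed here, so their part in the Fabp4 values was not tested. Egfl7, a secreted factor whose gene hosts miR-126, was at -0.14 ± 0.19. Mmrn2, a matrix glycoprotein of vessels, was at -0.07 ± 0.29 and Nos3, the endothelial nitric oxide synthase, at 0.10 ± 0.25. Egfl7, Mmrn2 and Nos3 were at -0.04, 0.17 and -0.01 without Irf3KO replicate 2. No source used here states whether counting used strand. In GENCODE M21 exons of 8 members, Nos3, Egfl7 and Eng among them, overlap a gene on the other strand. Only reads in the shared bases, such as 61 bases in Eng and 964 bases in Notch1, cannot be told apart.

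Irf3KO replicate 2 was the lowest of the 6 libraries for 20 of the 36 members, near the 52.2% of all tested genes for which it was lowest, and the highest for 2, Vegfb and Sox18, against 24.1%. Which members it had low or high went with their GC content. The difference of that library from the mean of the other 5 had a Spearman correlation of 0.76 with transcript GC over the 36 members, and of 0.56 over the 12707 tested genes with a GC value; the points share 1 library and its depth. In the other 5 libraries the same correlation over the members ran from -0.59 to -0.07. Each of these was set against a mean that holds Irf3KO replicate 2, so they are not independent of its 0.76. Over all genes with a GC value, Irf3KO replicate 1 had a correlation of -0.56. Vegfb (62.6% GC) and Sox18 (60.9%) lay at the GC-rich end, and Nrp1 (41.9%) and Tek (47.1%) towards the other. With a GC correction, added after this was seen, Tek was at -0.41, Nrp1 at -0.24 and Vegfb at 0.47, all nearer 0. The GC-poor Fabp4 and Angpt1 moved away from 0, to 0.56 and 0.40, with unadjusted limma p of 0.0424 and 0.0322 and adjusted p of 0.412 and 0.399. Then 0 members were called, where 0.866% of all genes were, and 4 had an unadjusted p under 0.05, where 11.9% of all genes did.

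**Figure D4:**
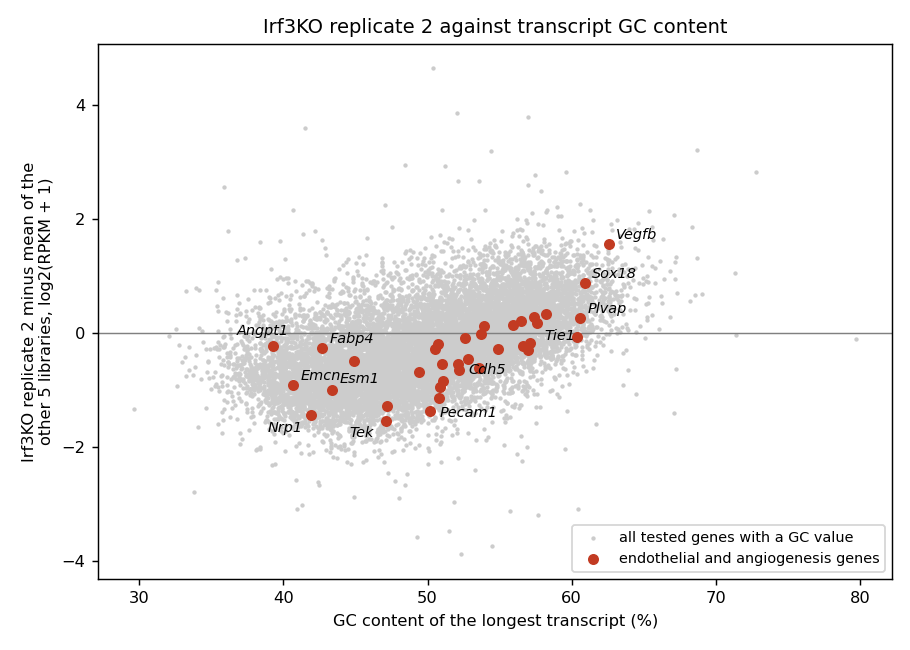
Irf3KO replicate 2 minus the mean of the other 5 libraries, on log2(RPKM + 1), against the GC content of the longest transcript in percent; red points are the 36 members and grey points all tested genes with a GC value. Red points climb from Nrp1 and Tek at the lower left to Vegfb and Sox18 at the upper right.

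A ratio within a library does not depend on its scaling, so 12 members were also expressed relative to Cdh5. It still compares genes of unlike GC content: 43.4% for Esm1, 47.1% for Tek and 60.4% for Cldn5, against 52.2% for Cdh5. In Irf3KO replicate 2 Esm1 and Tek had their lowest ratio and Cldn5 its highest, and the part of GC content was not tested. Esm1 was at 1.27%, 1.06% and 1.30% of Cdh5 in Irf3KO, against 3.74%, 4.14% and 2.59% in WT. The groups did not overlap, with a difference of -1.50 in log2 ratio, and -1.40 against the geometric mean of Pecam1, Cdh5 and Tie1. The ratios use RPKM with nothing added, unlike the fold changes on log2(RPKM + 1), so -1.50 is not on the scale of -0.94. With a pseudocount of 0.1 the Esm1 log2 fold change was already -1.39. Tek was at 15.6%, 8.72% and 14.3% in Irf3KO, against 18.7%, 20.4% and 22.5% in WT (-0.71), and Cldn5 at 17.0%, 22.2% and 14.9% in Irf3KO, against 14.7%, 14.4% and 12.9% in WT (0.35). For these 3 genes an exact two-sided permutation test gave p = 0.1, the smallest that 3 against 3 libraries allow, and 0.4 after Benjamini-Hochberg adjustment over the 12 ratios. For the other 9 ratios the exact p ran from 0.2 to 1.0, with Kdr, Flt1 and Aplnr at -0.16, -0.11 and 0.00. Without Irf3KO replicate 2 the difference was -1.41 for Esm1, -0.45 for Tek, 0.19 for Cldn5, -0.17 for Kdr, -0.28 for Flt1 and -0.19 for Aplnr.

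**Figure D5:**
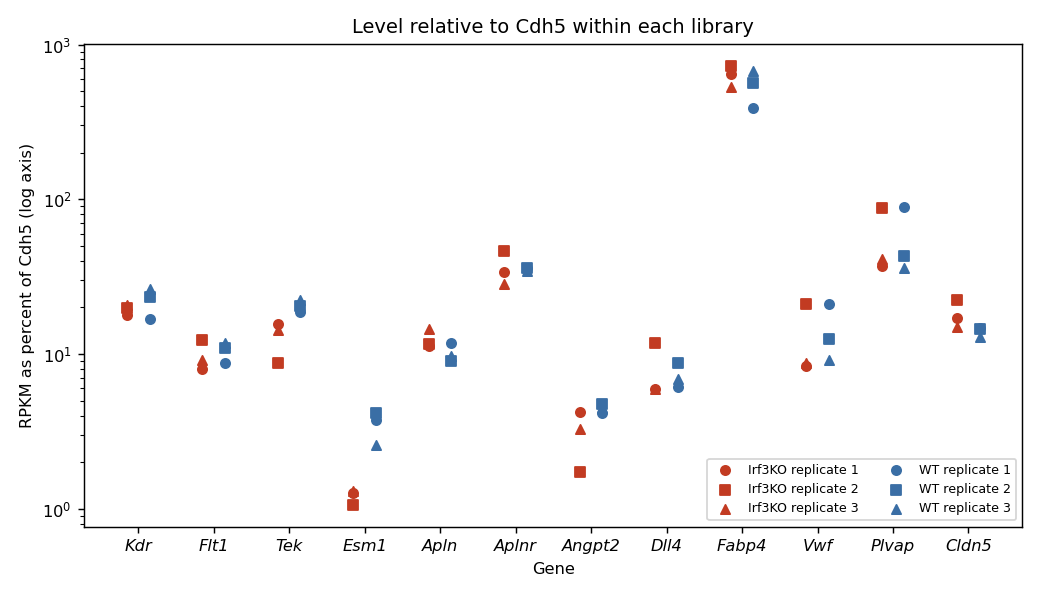
RPKM of 12 members as a percent of Cdh5 in the same library, on a log axis; red points on the left of each pair are Irf3KO and blue points on the right WT, with shapes for replicates 1 to 3. Esm1 and Tek have every red point below every blue one and Cldn5 every red point above, while the points of the other genes overlap.

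Beyond the members, 151 other genes of endothelial pathways were tested, from lists of VEGF, angiopoietin, Notch, transcription factor, junction, capillary, tip cell, activation, lymphatic, endocardial and inhibitor genes. Of these 1 fell, where 0.356% of all tested genes did, and 0 rose, where 0.147% did; 17 were lower and 3 higher at an unadjusted p under 0.05, as were 5.96% and 2.45% of all tested genes. The one that fell was Cxcl10, an interferon-induced chemokine that restrains angiogenesis, at 1.33, 0.40 and 0.75 RPKM in Irf3KO, against 6.45, 12.50 and 7.62 RPKM in WT (log2 fold change -2.42 ± 0.28, limma adjusted p = 0.011). Its call was lost without Irf3KO replicate 3 (-2.40, adjusted p = 0.0531) and without WT replicate 3 (-2.49, adjusted p = 0.0811), with the log2 fold change about as large. The median of the 151 was -0.21, beside -0.09 for all tested genes, and -0.02 without Irf3KO replicate 2.

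Genes of capillary lipid uptake and water transport lay on the other side, 11 of 13 above 0 with a median of 0.44, none called and 2 higher at an unadjusted p under 0.05, as were 2.45% of all tested genes. Gpihbp1, which carries lipoprotein lipase to the capillary lumen, stood at 55.54, 51.95 and 62.63 RPKM in Irf3KO, against 36.33, 35.60 and 35.33 RPKM in WT. The groups were well apart (0.65 ± 0.18, limma adjusted p = 0.345). Without both Irf3KO replicate 2 and WT replicate 1 Gpihbp1 was called (0.72, adjusted p = 0.0318), where 2.98% of all genes were. Rbp7, a retinol-binding protein of capillary endothelium, was at 0.62 ± 0.25. Of 20 cardiomyocyte markers all 20 also lay above 0 with a median of 0.57. Without WT replicate 1 the medians were 0.30 for the capillary list and 0.15 for the cardiomyocyte list, and Gpihbp1 was at 0.66. Without Irf3KO replicate 2 as well the medians were 0.31 and 0.03, with 11 of 13 and 10 of 20 genes above 0. The part of muscle RNA in the capillary values was not tested.

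Of 21 tip cell and sprouting genes, 14 lay below 0 and none was called; without Irf3KO replicate 2 the number below 0 was 9, and without WT replicate 1 it was 8. Ddah1, which breaks down an inhibitor of nitric oxide synthase, stood at 18.79, 15.45 and 16.18 RPKM in Irf3KO, against 32.84, 56.91 and 36.13 RPKM in WT. The groups did not overlap (-1.23 ± 0.24, limma adjusted p = 0.0977). Without both Irf3KO replicate 2 and WT replicate 1 Ddah1 was called (-1.33, adjusted p = 0.0101), where 2.98% of all genes were. Nid1, a basement membrane protein, was at -0.73 ± 0.29. Of 14 Notch genes none was called. Rbpj, the DNA-binding factor through which Notch acts, stood at 3.74, 2.57 and 5.35 RPKM in Irf3KO, against 9.23, 7.72 and 7.33 RPKM in WT (-0.93 ± 0.24, adjusted p = 0.306), and the receptor Notch2 was at -0.65 ± 0.28. Nid1, Rbpj and Notch2 were at -0.41, -0.72 and -0.39 without Irf3KO replicate 2.

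The remaining lists also had no call beside that of Cxcl10, and each is given by its 2 genes with the smallest p. In the VEGF list (9 tested) these were Ptprb, a phosphatase that restrains Tek, and Sema3c, at -0.62 ± 0.26 and -0.63 ± 0.34. In the angiopoietin list (3 tested) Angptl4 and Angptl2 were at 0.49 ± 0.39 and -0.11 ± 0.19. Of 20 transcription factors the venous factor Nr2f2 and Mecom were at -0.50 ± 0.26 and -0.57 ± 0.31. Of 45 junction and shear genes Tspan18 and the arterial connexin Gja5 were at -0.78 ± 0.24 and -0.84 ± 0.32. Tspan18 and Ptprb had no overlap between the genotypes, and Gja5 overlapped by 1 library. Of 8 genes of activated endothelium Darc, a chemokine-binding protein of venules, and Lrg1, a secreted glycoprotein, were at -0.48 ± 0.17 and 0.68 ± 0.25. Of 4 lymphatic genes Pdpn, which fibroblasts and macrophages also express, and Lyve1 were at -1.42 ± 0.41 and -0.63 ± 0.43. Fbln5 of the endocardial and arterial list and Timp3 of the 11 inhibitors were at -0.59 ± 0.19 and -0.75 ± 0.27. The adjusted limma p of these genes lay between 0.384 and 0.789. Without Irf3KO replicate 2 many of the lower values were nearer 0: Ptprb was at -0.34, Sema3c at -0.26, Nr2f2 at -0.23, Mecom at -0.22, Gja5 at -0.53, Pdpn at -0.97, Lyve1 at -0.20 and Timp3 at -0.46. Angptl4 was then at 0.88, Angptl2 at -0.01, Tspan18 at -0.62, Darc at -0.36, Lrg1 at 0.57 and Fbln5 at -0.60. Beside these values, 14 of 15 fibroblast markers and 15 of 17 monocyte and macrophage markers lay below 0, with medians of -0.50 and -0.38 and 0 called in each; their part was not tested. Without Irf3KO replicate 2 the fibroblast list was still 14 of 15 below 0, with a median of -0.30, while the monocyte and macrophage list was 9 of 17 below 0, with a median of -0.07. Without WT replicate 1 as well, the monocyte and macrophage list had 6 of 17 below 0 and a median of 0.13. Of 14 pericyte and smooth muscle markers 9 lay below 0, with a median of -0.08 and 0 called. Without WT replicate 1 the number below 0 was 13, with a median of -0.14. Without Irf3KO replicate 2 as well it was again 13, with a median of -0.17. Without WT replicate 2 alone it was 7, with a median of 0.03.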

How the data were processed

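The authors deposited 1 table of RPKM, rounded to 2 decimals, with a gene length for each of 12969 genes. The submitters' processing notes name edgeR 3.8.6, HTSeq 0.6.0, SAMtools 0.1.18.0, STAR 2.3.0 and Picard 1.100 and the build NCBIM37 (mm9); no source used here gives their settings, the strand counted or the gene filter. In 5 lines, none of a member, a split gene name was repaired. Depth was read from the steps of 1 read between low values, all of which fell within 0.2 reads of a whole number. Since RPKM are not counts, a count test was not used.

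The 12913 genes whose mean reached 1 RPKM were tested on log2(RPKM + 1), which understates the change of low genes, with limma 3.58.1 in R 4.3.3 (trend, two-sided, 3 Irf3KO against 3 WT, Benjamini-Hochberg over all tested genes, threshold 0.05). Fold changes are Irf3KO over WT. The labels do not say more of the animals, so p-values measure the spread between these libraries. The fit was tested on simulated data. GC content was found for 98.4% of tested genes in GENCODE M21 (GRCm38), matched by symbol; no coordinates were carried between builds.

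Members, lists and tests were chosen with earlier results of these data known. Values in every library are given for 16 members listed by name and for the 10 members with the smallest p, and for other genes by their p within a list. Npr3, Nrg1, Cytl1, Bmx and Cd36 were chosen after their values were seen. Alternatives were another pseudocount, no filter, median-of-ratios scaling, array weights, a replicate block, and leaving out libraries. A GC correction and leaving out Irf3KO replicate 2 with WT replicate 1 were added after the data were seen.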

Additional observations from a re-analysis of the deposited data

How the results depend on the processing

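Of 468 values of the 36 members under the alternatives, 459 stayed on the same side of the threshold and 9 passed it. With all libraries 0 members were called, and a change of sign on the uncalled side counted as staying. The tally therefore says little of how stable the fold changes were. Leaving out each library in turn gave 21 to 97 called genes (65 with all), 0 called members each time, 1 to 4 members at an unadjusted p under 0.05 (2 with all) and 0 to 1 other endothelial genes called, with Irf3 at -0.73 to -0.61. The share of all genes at that unadjusted p is not given for these fits, so the 1 to 4 members have no background beside them. The members' median ran from -0.18 to 0.05 as each library was left out. Without both Irf3KO replicate 2 and WT replicate 1 there were 385 called genes, 2 called members (Apln and Icam2) and 9 members at an unadjusted p under 0.05. Of all tested genes 2.98% were called and 17.0% had an unadjusted p under 0.05. Then 7 of the 151 other endothelial genes were called: Pgf, Angptl4, Gpihbp1, Ddah1, Pdpn, Cxcl10 and Pf4. The members' median was 0.17, beside 0.01 for all genes, and Irf3 was at -0.68 and passed. With the GC correction there were 110 called genes and 4 members at an unadjusted p under 0.05, where 11.9% of all genes had one. The members' median was then -0.07, beside 0.01 for all genes, and Irf3, at -0.75, passed. Array weights, which gave Irf3KO replicate 3 a weight of 6.36 and Irf3KO replicate 2 one of 0.103, led to 2960 called genes, 7 members called, 11 at an unadjusted p under 0.05 and 41 of the 151 other endothelial genes called, with Irf3, at -0.74, passing. With array weights 22.9% of all tested genes were called and 39.5% had an unadjusted p under 0.05. The default way of estimating these weights did not converge, and the gene-by-gene method was chosen after the data were seen.

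Replicate numbers did not pair the libraries: deviations of same-numbered libraries correlated at 0.129, -0.0978 and -0.102. With a replicate block 250 of 12913 genes were called, 0 of 36 members and 5 of 151 other endothelial genes (Ddah1, Pdpn, Npr3, Nrg1 and Cxcl10). Then 3 members had an unadjusted p under 0.05. The share of all genes at that unadjusted p is not given for this fit, so the 3 have no background beside them. The 84 alternative values of the 12 ratios to Cdh5 each moved by less than the SD within groups, pooled over both. Leaving out a library of 3 cannot move a group mean by more than that, so these values say nothing of stability. The 3-gene denominator moved all 12 ratios by the same amount. The cause of these shifts was not tested. The fewest reads behind a member's value were 25, for Esm1, and 3 animals per genotype limit every value.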
